A study of Mus musculus with 12 samples.

Results

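The isocitrate dehydrogenases were described in mouse hearts that express 1 of 2 mutated forms of human integrin-linked kinase (ILK) and in wild type littermates. The family has 5 genes, Idh1, Idh2, Idh3a, Idh3b and Idh3g, of 18193 genes named alone by a probe set, and they were read by 13 of 45037 probe sets. All 13 probe sets that name 1 of these genes alone were kept. The family was selected on measured values, the log2 signals of these hearts across the 3 genotypes. Differences between genotypes are therefore given as a description, with standard errors. Counts of member probe sets called in these contrasts are given beside those over all tested probe sets, and nothing is read from them.

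The hearts came from C57BL/6 mice aged 8 to 9 weeks, 3 labelled ILKR211A Tg, 3 ILKS343D Tg and 6 WT littermates, with 1 array per heart. Both transgenes over-express a mutated human ILK in the heart alone, the R211A form with a substitution in its pleckstrin homology domain and the S343D form with an aspartate at its putative autophosphorylation site. No group carries an unmutated ILK transgene, and no source used here gives the promoter or the number of founder lines. The 6 WT hearts fall into 2 sets of 3 by their replicate labels, named the first and the second set. Of the 12 mice 11 are labelled female, and the exception, labelled male, is replicate 1 of the first WT set. The first set and the ILKS343D Tg hearts hold the heart numbers 1 to 6, and the second set and the ILKR211A Tg hearts hold 7 to 12. Line and range of heart numbers thus go together, and no label says which line a WT set belongs to. The labels name no surgery, and no comparison by infarction was made.

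Isocitrate dehydrogenases oxidise and decarboxylate isocitrate to 2-oxoglutarate. Idh3a, Idh3b and Idh3g encode the subunits of the NAD-dependent enzyme of the tricarboxylic acid cycle, in which Idh3a carries the catalytic subunit and Idh3b and Idh3g the regulatory partners. Idh2 encodes the NADP-dependent enzyme of the mitochondrial matrix, which is abundant in heart muscle, and Idh1 the NADP-dependent enzyme of the cytosol and peroxisomes. Both NADP-dependent enzymes form NADPH, which serves reductive synthesis and antioxidant defence.

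All 12 arrays had the same mean signal without the lowest and highest 2% of features, and their median signals ranged from 41.5 to 49.1. Correlations of log2 signal between arrays lay between 0.933 and 0.945. The 3′ to 5′ ratio of Gapdh, a measure of RNA integrity, ranged from 0.742 to 0.799. The 12 cardiomyocyte markers were all above the filter on low signals, and Myh6, the main myosin heavy chain of the adult mouse heart, read 11300 to 14200. The targeted gene, Ilk, read through probes made for the mouse gene, had signals of 8799 ± 682 in ILKR211A Tg hearts (SD, n = 3), 3515 ± 434 in ILKS343D Tg hearts (SD, n = 3) and 601 ± 39 in WT hearts (SD, n = 6). In tissue RNA, fewer cells of a type and less RNA per cell cannot be told apart.

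Idh1 was the member that differed most between the groups. Its leading probe set, 1422433_s_at, read 397, 451 and 397 in the 3 ILKR211A Tg hearts. The ILKS343D Tg hearts read 887, 705 and 828. The WT hearts read 1001, 888 and 690 in the first set and 654, 596 and 579 in the second set. Every ILKR211A Tg heart was thus below every other heart, and the ILKS343D Tg hearts lay within the range of the WT hearts.

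Mean Idh1 signal was 415 ± 31.4 in ILKR211A Tg hearts (SD, n = 3), 806 ± 92.9 in ILKS343D Tg hearts (SD, n = 3) and 734 ± 171 in WT hearts (SD, n = 6). On the log2 scale, the ILKR211A Tg hearts were lower than WT by a difference of -0.80 with a standard error of 0.15, which is 57.6% of the WT level. Against the ILKS343D Tg hearts the difference was -0.95 with a standard error of 0.18, or 51.6% of their level. The ILKS343D Tg hearts differed from WT by 0.16 with a standard error of 0.15, which was within the spread of the WT hearts. In descending order of mean signal, the WT first set and the ILKS343D Tg hearts did not differ beyond their spread. The WT second set followed without overlap, and the ILKR211A Tg hearts came last, again without overlap.

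The size of the Idh1 difference depended on which WT hearts were the controls. Against the second set alone, which holds the same range of heart numbers, the log2 difference of ILKR211A Tg hearts was -0.56. Against the first set alone it was -1.04. The ranges did not overlap in either case, as held for 7.07% of all tested probe sets in that direction against the second set and 6.51% against the first. The ILKS343D Tg hearts differed from the first set, which shares their heart numbers, by -0.082 with overlapping ranges. They were higher than the second set by 0.40 without overlap, which held for 5.37% of all tested probe sets in that direction. Replicate 1 of the first set, labelled male, had the highest Idh1 signal of all hearts, and without it the log2 difference between ILKR211A Tg and WT hearts was -0.70.

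The family was chosen across the 3 genotypes, which do not separate the 2 WT sets. The choice used the signals of the same WT hearts and was made with earlier results of these data known. Whether the choice was independent of the contrast between the WT sets was not tested, and the p-values below are read with that limit. The second set was 71.7% of the first at 1422433_s_at, a log2 difference of -0.48 with a standard error of 0.13, and every second-set heart was below every first-set heart. The unadjusted p was 0.0019, and the p adjusted over all 22519 tested probe sets was 0.358 (limma), so the difference did not pass the threshold of 0.05. The smallest p that an exact permutation test of 3 hearts against 3 allows is 0.1.

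The other Idh1 probe set, 1419821_s_at, did not show this pattern. It read 476, 467 and 448 in ILKR211A Tg hearts and 453, 531 and 483 in ILKS343D Tg hearts. The WT hearts read 473, 607 and 459 in the first set and 488, 376 and 470 in the second. All groups overlapped. The ILKR211A Tg hearts differed from WT by -0.034 on the log2 scale with a standard error of 0.11. Between the lines the difference was -0.076 with a standard error of 0.13.

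Over the 12 hearts the 2 Idh1 probe sets correlated with r = 0.33, given as a description because both read the same RNA. The log2 ratio of 1422433_s_at to 1419821_s_at within an array was -0.16 ± 0.11 in ILKR211A Tg hearts (SD, n = 3). It was 0.72 ± 0.29 in ILKS343D Tg hearts, 0.74 ± 0.30 in the first WT set and 0.46 ± 0.18 in the second (SD, n = 3 each). The highest ratio of an ILKR211A Tg heart was -0.049 and the lowest of a WT heart was 0.30. The ratio contains the signal of 1422433_s_at, at which these groups already did not overlap. How often ratios of other probe set pairs separate these groups was not counted. A ratio within an array shows unequal change between the probe sets. The files do not say which part of the Idh1 transcript each probe set reads, and the suffix of both marks probes that can match more than 1 transcript.

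**Figure D1:**
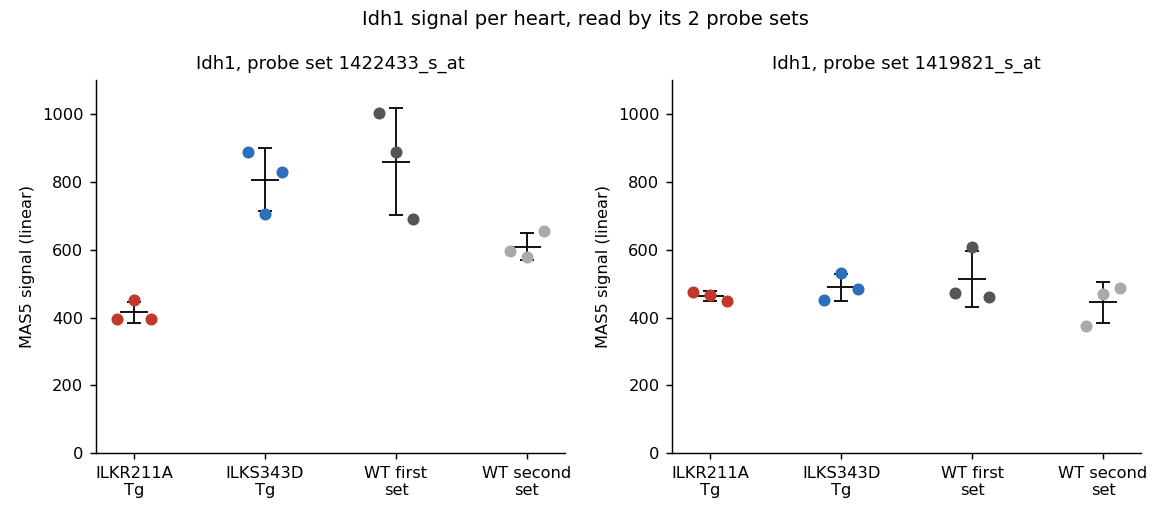
MAS5 signal of Idh1 on a linear axis from 0, with 1 point per heart in 4 groups, read by 1422433_s_at at left and 1419821_s_at at right. Black lines are the mean and SD of 3 hearts. At left the ILKR211A Tg hearts sit at 397 to 451, below all other hearts, and at right the 4 groups overlap.

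RefSeq annotates 2 starts of Idh1 on chromosome 1 that lie 7337 bases apart, and the 250 bases before each are shown because they are what the annotation offers on the 5′ side of the gene whose probe sets differ. Both windows are from GRCm38.p6 on the minus strand and are written 5′ to 3′ along the gene. Capitals mark exact matches on either strand to the motifs searched.
Idh1 start 1, chr1:65186480-65186729: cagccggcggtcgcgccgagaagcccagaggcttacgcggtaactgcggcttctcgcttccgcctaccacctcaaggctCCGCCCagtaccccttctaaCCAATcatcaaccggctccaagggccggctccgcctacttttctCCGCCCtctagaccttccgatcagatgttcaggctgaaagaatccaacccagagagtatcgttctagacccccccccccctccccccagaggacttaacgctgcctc
Idh1 start 2, chr1:65179143-65179392: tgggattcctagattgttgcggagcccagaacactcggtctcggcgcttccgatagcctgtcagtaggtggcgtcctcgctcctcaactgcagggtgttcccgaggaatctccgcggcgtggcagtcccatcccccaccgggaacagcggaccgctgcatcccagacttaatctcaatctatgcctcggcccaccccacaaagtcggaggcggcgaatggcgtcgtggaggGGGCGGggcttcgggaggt
The motifs were the GC box (GGGCGG), the CCAAT box (CCAAT), the TATA box (TATAAA), the E-box (CACGTG), the heat shock element (GAANNTTC) and the antioxidant response element (TGACNNNGC). The window at start 1 holds 2 GC boxes, 171 and 107 bases before the start, and 1 CCAAT box at 151 bases. The window at start 2 holds 1 GC box at 19 bases. A GC box is found in 32.7% of all 32851 annotated windows of 250 bases and a CCAAT box in 33.8%. Neither window holds the letters searched for a TATA box, an E-box, a heat shock element or an antioxidant response element, which are found in 12.4%, 6.02%, 6.69% and 10.2% of all windows. The GC contents were 61.6% and 63.6% against a median of 52.4%, with 18 and 22 CG dinucleotides against a median of 6. These matches describe the sequence and were not set against binding data.

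The position of Idh1 on chromosome 1 was looked at through its neighbours. Of the 20 measured genes nearest to it, 10 on each side in the RefSeq order, 0 passed the threshold of adjusted p under 0.05 in any of the 4 contrasts (limma). Their log2 differences between ILKR211A Tg and WT hearts ranged from -0.19 to 0.20, with 8 of 20 below 0. Between ILKS343D Tg and WT hearts they ranged from -0.12 to 0.89. Between the lines they ranged from -0.73 to 0.26, with 15 of 20 below 0, and between the WT sets from -1.59 to 0.34, with 13 of 20 below 0. Myl1 alone gave the values of 0.89, -0.73 and -1.59. Between the WT sets the next lowest neighbour was Fzd5 at -0.2, so that Idh1, at -0.48, was lower than all neighbours but Myl1. Against WT and between the lines, the ILKR211A Tg differences of Idh1, -0.80 and -0.95, lay below the ranges of its neighbours.

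At its leading probe set Idh2, the matrix NADP-dependent enzyme, was near the WT level in ILKR211A Tg hearts and at 89.6% of it in ILKS343D Tg hearts. Its leading probe set, 1450048_a_at, read 7371, 8739 and 7687 in ILKR211A Tg hearts and 7024, 6582 and 7123 in ILKS343D Tg hearts. The WT hearts read 7901, 6859 and 8027 in the first set and 7461, 9103 and 7099 in the second. The lines did not overlap, whereas each line overlapped the WT hearts.

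Mean Idh2 signal was 7932 ± 716 in ILKR211A Tg hearts (SD, n = 3), 6910 ± 288 in ILKS343D Tg hearts (SD, n = 3) and 7742 ± 804 in WT hearts (SD, n = 6). The log2 difference between the lines was 0.20 with a standard error of 0.094. Against WT it was 0.037 with a standard error of 0.082 for ILKR211A Tg hearts and -0.16 with a standard error of 0.082 for ILKS343D Tg hearts. The WT sets differed by 0.049 (adjusted p = 0.934, limma). The second Idh2 probe set, 1453601_at, is dim. It read 21.4 to 59.7 over all hearts, and its mean log2 signal was just above the filter limit, a signal of 43.5. Its groups overlapped in all contrasts, and over the 12 hearts it correlated with the leading probe set at r = -0.66.

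The catalytic subunit gene Idh3a had the narrowest range of the 5 members at their leading probe sets. Its leading probe set, 1432016_a_at, read 5345, 5363 and 5161 in ILKR211A Tg hearts, 5258, 5234 and 5335 in ILKS343D Tg hearts, 5132, 5717 and 5713 in the first WT set and 5331, 5671 and 5470 in the second. The highest heart was 1.11 times the lowest. Both lines overlapped the WT hearts, with log2 differences of -0.057 and -0.061 and a standard error of 0.049 each.

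The other Idh3a probe sets, 1422501_s_at, 1422500_at and 1447701_x_at, differed from WT by -0.015 to 0.087 in ILKR211A Tg hearts and by 0.0095 to 0.13 in ILKS343D Tg hearts, with overlapping groups throughout. The dimmest of them, 1447701_x_at, spanned 1.5 times from lowest to highest heart. At 1422500_at the WT sets did not overlap. The first set read 699, 730 and 725 and the second 652, 665 and 679, a log2 difference of -0.11 with a standard error of 0.066 (adjusted p = 0.70, limma). No probe set of Idh3a tracked another closely over the 12 hearts, with r from -0.19 to 0.27 among its 4 probe sets.

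The regulatory subunit genes Idh3b and Idh3g did not separate the groups at any probe set. The leading Idh3b probe set, 1418886_s_at, read 3172, 2493 and 2701 in ILKR211A Tg hearts, 2320, 3256 and 2542 in ILKS343D Tg hearts, 2731, 2953 and 2904 in the first WT set and 2942, 2346 and 2787 in the second. Hearts within a group differed more than the group means did. The log2 differences from WT were 0.003 in ILKR211A Tg hearts and -0.048 in ILKS343D Tg hearts, with a standard error of 0.11 each. The 2 other Idh3b probe sets, 1418885_a_at and 1441271_at, differed from WT by -0.078 to 0.22 in the lines, and 1441271_at was dim, at 45 to 110.

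Idh3g read 5092, 5482 and 4828 in ILKR211A Tg hearts at its leading probe set, 1416789_at. It read 5108, 4705 and 4726 in ILKS343D Tg hearts, 5020, 4615 and 5226 in the first WT set and 5111, 5130 and 4775 in the second. The highest heart was 1.19 times the lowest. Log2 differences from WT were 0.044 and -0.039 with a standard error of 0.058 each. The second Idh3g probe set, 1416788_a_at, differed from WT by 0.00037 and -0.021 and correlated with the first at r = 0.63 over the 12 hearts.

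**Figure D2:**
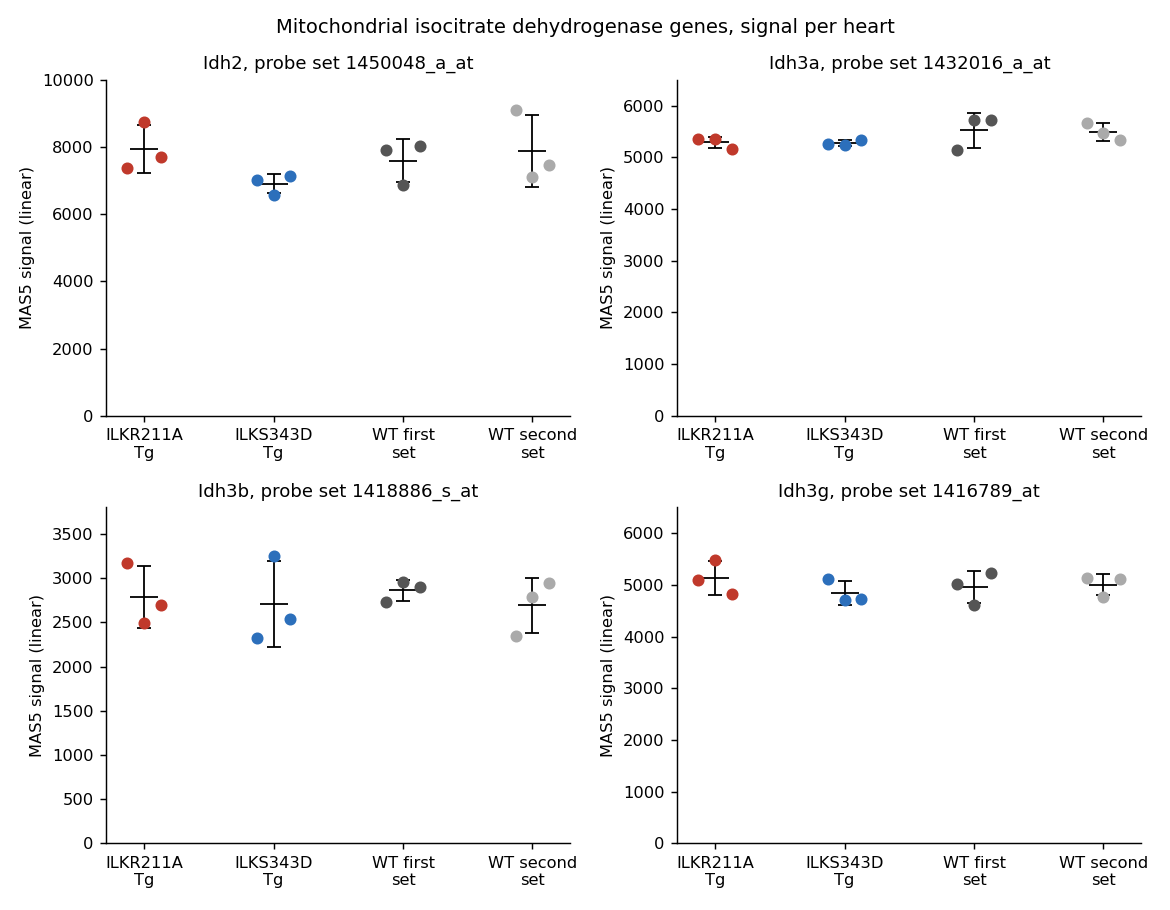
MAS5 signal of Idh2, Idh3a, Idh3b and Idh3g at their leading probe sets, on linear axes from 0, with 1 point per heart and the mean and SD of 3 hearts per group. Idh2 of ILKS343D Tg hearts, at 6582 to 7123, sits below that of ILKR211A Tg hearts, and the groups of the other 3 genes overlap.

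The counts over the 13 probe sets, all of which passed the filter, stand beside the counts over all 22519 tested probe sets at an adjusted p under 0.05 (limma). Between ILKR211A Tg and WT hearts 0 of 13 were called against 0.204% of all, and between ILKS343D Tg and WT hearts 0 of 13 against 0.00444%. Between the lines 1 of 13, Idh1 at 1422433_s_at, was called against 0.16% of all. At an unadjusted p under 0.05 the counts were 1, 0 and 1 of 13, against 1691, 897 and 1902 of all 22519 probe sets. By gene, 7.52%, 3.79% and 7.85% of all 11189 genes tested were under this limit. Nothing is read from these counts, since the family was chosen on these contrasts. Between the WT sets 0 of 13 were called against 0.00888% of all. At an unadjusted p under 0.05 there were 1 of 13 and 1800 of all 22519 probe sets, and 7.25% of all genes tested.

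Groups that did not overlap were also counted. Between ILKR211A Tg and WT hearts 1 of 13 probe sets was lower without overlap, against 1.95% of all tested. Between the lines Idh1 was lower in ILKR211A Tg hearts, against 7.4% of all in that direction, and Idh2 higher, against 7.55%. In the second WT set 2 of 13 were lower, Idh1 and Idh3a, against 5.64% of all.

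Leaving out 1 heart changed whether Idh1 was called, and nothing is read from these calls either, since the family was chosen on these contrasts. Between ILKR211A Tg and WT hearts the count became 1 of 13 without replicate 1 of the first WT set and without replicate 2 or 3 of the second. Between the lines it became 0 of 13 without any 1 of the 6 transgenic hearts, without replicate 3 of the first WT set or without replicate 1 of the second. Other processing changed the calls too. Between the lines the count was 0 of 13 with each array centred on its median, without the filter or with empirical Bayes without a trend, and against WT it was 1 of 13 after quantile normalization or with array weights. The direction of the Idh1 difference held without each heart, with log2 values from -0.70 to -0.86 against WT and from -0.88 to -1.05 between the lines.

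**Figure D3:**
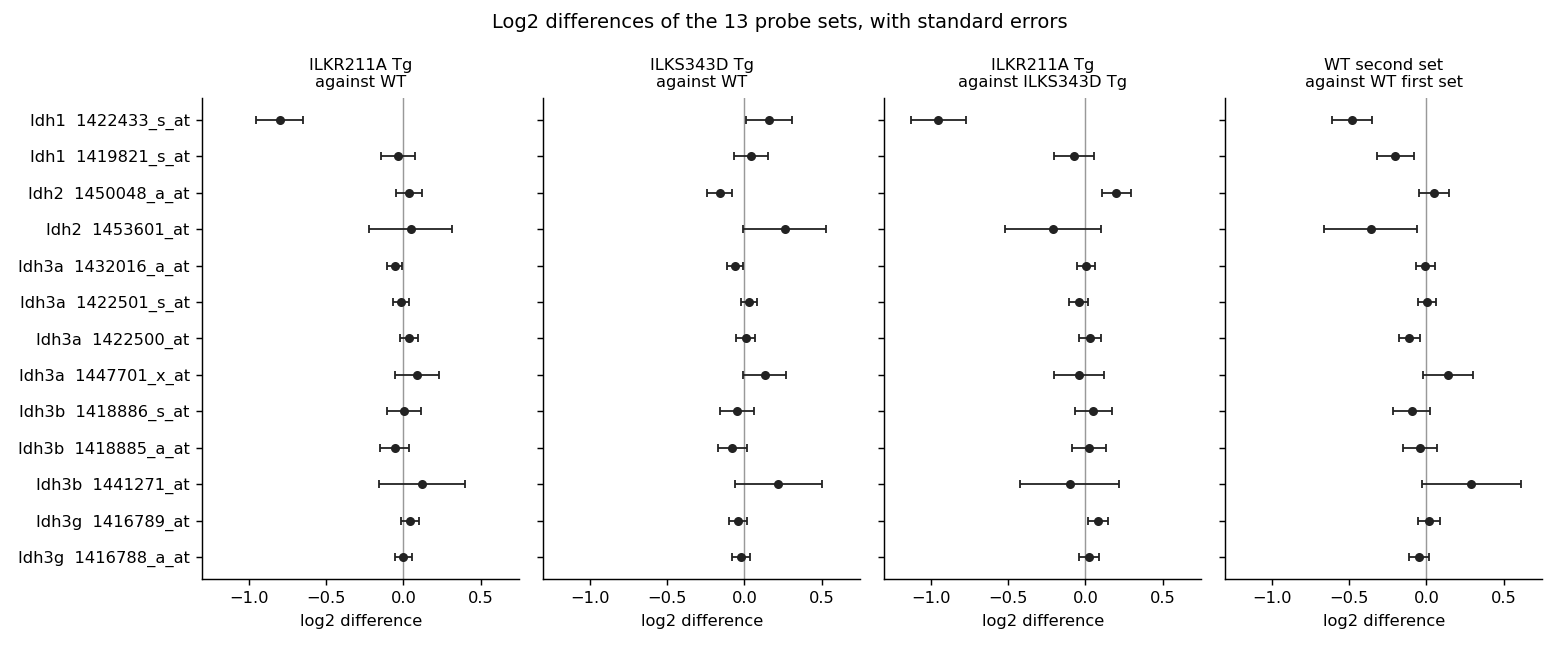
Log2 differences of the 13 probe sets, with standard errors from limma as bars, in 4 contrasts. Idh1 at 1422433_s_at stands at -0.80 and -0.95 in the contrasts of ILKR211A Tg hearts with WT and with ILKS343D Tg hearts and at -0.48 between the WT sets, and the other probe sets lie within 0.36 of 0.

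Other genes around isocitrate were measured in 5 lists, of which 55 genes had a probe set above the filter. In none of the 4 contrasts did any of the 55 pass the threshold (limma). At an unadjusted p under 0.05 there were 6 genes between ILKR211A Tg and WT hearts, 1 between ILKS343D Tg and WT hearts, 5 between the lines and 2 between the WT sets. These are 10.9%, 1.82%, 9.09% and 3.64% of the 55, beside 7.52%, 3.79%, 7.85% and 7.25% of all 11189 genes tested. The median log2 difference over all 11189 genes tested was -0.0014 between ILKR211A Tg and WT hearts and -0.00077 between ILKS343D Tg and WT hearts, and the list medians below are read beside these.

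Of the other tricarboxylic acid cycle enzymes 13 of 14 were measured, with a median of 0.027 in ILKR211A Tg and -0.049 in ILKS343D Tg hearts. Sdhc, a membrane anchor of succinate dehydrogenase, read 5391 ± 265 in ILKR211A Tg hearts (SD, n = 3) and 4736 ± 274 in WT hearts (SD, n = 6), a log2 difference of 0.19 with a standard error of 0.057 that did not pass the threshold (adjusted p = 0.35, limma). Dlst, a core subunit of the 2-oxoglutarate dehydrogenase complex that uses the product of these enzymes, differed by 0.082 (adjusted p = 0.834, limma).

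Of pyruvate dehydrogenase and its regulators 11 of 13 were measured, with medians of 0.014 and -0.049. Pdk4, a kinase that inactivates pyruvate dehydrogenase, read 2243 ± 860 in ILKR211A Tg, 3621 ± 924 in ILKS343D Tg, 4702 ± 572 in the first WT set and 2826 ± 1220 in the second (SD, n = 3 each). The second set differed from the first by a log2 difference of -0.83 with a standard error of 0.30 (adjusted p = 0.529, limma). Between ILKR211A Tg and WT hearts Pdk4 differed by -0.71 (adjusted p = 0.641, limma), and Pdk1, another kinase of the complex, by 0.17 (adjusted p = 0.79, limma).

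Of the other NADPH-forming enzymes 10 of 12 were measured, with medians of 0.0027 in ILKR211A Tg and -0.14 in ILKS343D Tg hearts. Those with the smallest p between ILKR211A Tg and WT hearts were Mthfd1 and Aldh1l2, both of folate metabolism, at -0.27 (adjusted p = 0.649, limma) and 0.15 (adjusted p = 0.885, limma). Of the genes that use or carry citrate, isocitrate and 2-oxoglutarate 12 of 14 were measured, with medians of -0.068 and -0.089. D2hgdh, which converts D-2-hydroxyglutarate to 2-oxoglutarate, differed by -0.22 with a standard error of 0.069 (adjusted p = 0.393, limma). Gpt2, a mitochondrial alanine aminotransferase, also differed by -0.22 (adjusted p = 0.81, limma).

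Of the regulators of mitochondrial and isocitrate dehydrogenase expression or activity 9 of 10 were measured, with medians of -0.054 and -0.04. Ppargc1a, a coactivator of mitochondrial biogenesis, differed by -0.21 with a standard error of 0.074 (adjusted p = 0.511, limma) between ILKR211A Tg and WT hearts. Nrf1, a transcription factor for respiratory chain genes, differed by -0.29 with a standard error of 0.12 (unadjusted p = 0.032, limma), which did not pass after adjustment. Over the same contrast the 5 isocitrate dehydrogenases had a median of 0.003, with 3 of 5 above 0.

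The members were also followed from heart to heart over the 10 pairs of leading probe sets. Idh2 and Idh3g had the highest correlation, with r = 0.74 (permutation p = 0.0058, adjusted over the 10 pairs 0.058) and rho = 0.79 (permutation p = 0.0033, adjusted 0.033). Without the 2 hearts farthest from the median of Idh2, r was 0.67. For deviations from the group means r was 0.70, and within the 6 WT hearts it was 0.76 (exact permutation p = 0.072). The adjusted p of r and the exact p within WT hearts did not pass 0.05, and the points share their arrays and the genotypes on which the family was chosen. The value depended on the scaling, as r was 0.87 with each array centred on its median and 0.081 after quantile normalization. The other 9 pairs had r between -0.51 and 0.24, with adjusted p of 0.46 or more, and the 4 pairs that hold Idh1 had r from -0.34 to 0.071. Among the 9, Idh2 and Idh3b had r = -0.51 over the 12 hearts and -0.13 with 2 hearts left out in the same way. For deviations from the group means their r was -0.71. Within the 6 WT hearts it was -0.82 (exact permutation p = 0.049, not adjusted over the pairs).

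The genes most like each member were named by the highest Pearson r between leading probe sets over the 12 hearts, as a description. Idh2 was most like Sdhb, the iron-sulphur subunit of succinate dehydrogenase (r = 0.988), followed by Rpl4, a ribosomal protein (r = 0.964), and Atp5a1, a subunit of ATP synthase (r = 0.959). Sdhb kept r = 0.984 for deviations from the group means and r = 0.932 after quantile normalization. Its signal was 8358 ± 686 in ILKR211A Tg, 7452 ± 286 in ILKS343D Tg (SD, n = 3 each) and 8177 ± 746 in WT hearts (SD, n = 6), an order that Idh2 shared.

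Idh1 was most like Epn3 (r = 0.918), an adaptor of clathrin-mediated uptake, Dnmt3a (r = 0.904), a DNA methyltransferase, and Lgi1 (r = 0.897). Much of this likeness lay between groups, since r for deviations from the group means was 0.618, 0.551 and 0.686. Epn3 read 79.6 ± 23.6 in ILKR211A Tg, 147 ± 20.3 in ILKS343D Tg, 173 ± 30.9 in the first WT set and 119 ± 23.3 in the second (SD, n = 3 each).

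Idh3a was most like Gmps, which makes GMP (r = 0.952), Dnaja2, an Hsp40 co-chaperone (r = 0.848), and Mlxipl, a carbohydrate-responsive transcription factor (r = 0.844). Idh3b was most like Mchr1, a receptor for melanin-concentrating hormone (r = 0.899), Prorsd1 (r = 0.892) and Ptk2b, a tyrosine kinase of the focal adhesion kinase family (r = 0.872). Idh3g was most like Dazap2 (r = 0.952), Prdx2, a peroxiredoxin (r = 0.909), and Zscan26 (r = 0.905). After quantile normalization r was below 0.80 for Gmps (0.749), Mlxipl (0.331), Atp5a1 (0.732) and for all 3 partners of Idh3g (0.614 to 0.753).

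**Figure D4:**
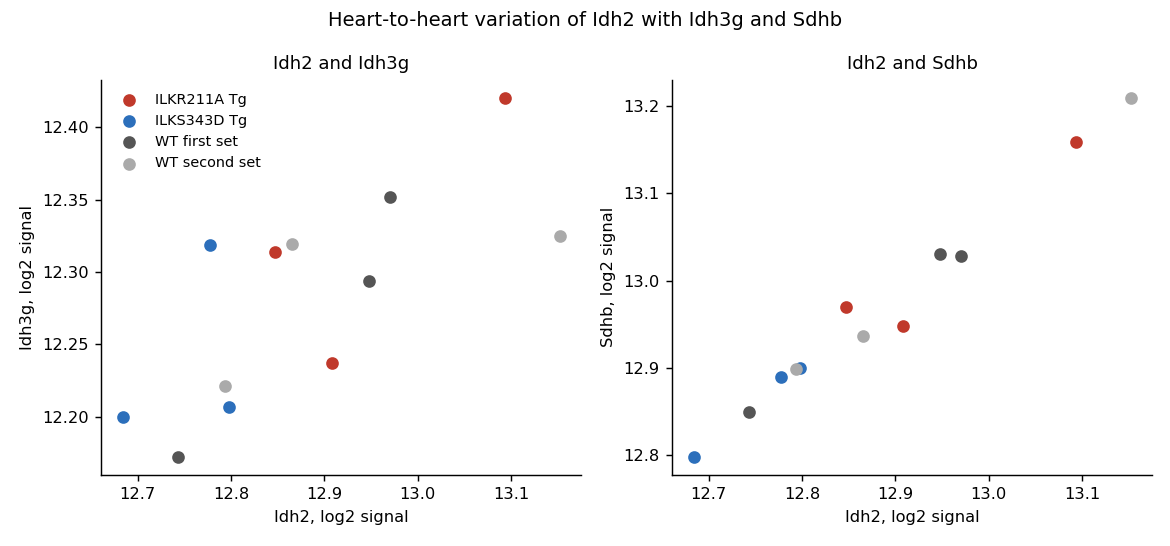
Log2 signal of Idh2 against that of Idh3g at left and of Sdhb at right, with 1 point per heart coloured by group. The points for Sdhb lie close to a line (r = 0.988), and those for Idh3g scatter more (r = 0.74).

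Markers of other cell types were summed per heart beside these values. The 5 measured adipocyte markers summed to 103 to 428 in ILKR211A Tg hearts, 70 to 166 in ILKS343D Tg hearts and 70 to 147 in WT hearts, with 1 of 7 listed genes above the filter. The 5 atrial markers ranged from 3052 to 21131, 2284 to 21894 and 3059 to 16715 in the same order. Sums for the 12 cardiomyocyte markers were 108996 to 122477, 100426 to 109617 and 104650 to 125359. The 8 macrophage markers summed to 3170 to 3463 in ILKR211A Tg hearts, 3509 to 4104 in ILKS343D Tg hearts and 2932 to 4055 in WT hearts. The 9 fibroblast markers summed to 12212 to 14328, 13646 to 14251 and 11014 to 14031. Of them 9 of 9 were higher than WT in both lines, with median log2 differences of 0.10 and 0.16, and 9 of 9 were lower in the second WT set than in the first, with a median of -0.21. Endothelial markers summed to 4203 to 4928, 4021 to 5315 and 4013 to 4863, and smooth muscle and pericyte markers to 7997 to 8786, 7719 to 9263 and 7374 to 9138. Erythroid markers summed to 442 to 741, 333 to 514 and 429 to 799. None of the 8 lists held a called gene in any contrast (limma), and all ranges of ILKR211A Tg hearts overlapped those of the WT hearts. Fibroblast markers and Idh1 were thus both lower in the second WT set, whereas ILKR211A Tg hearts had lower Idh1 and higher fibroblast markers than WT. Macrophage markers had median log2 differences from WT of -0.03 in ILKR211A Tg and 0.15 in ILKS343D Tg hearts. Their median was -0.15 between the lines, where the sums did not overlap, and -0.14 between the WT sets. These medians had the sign of the Idh1 difference in every contrast. Of the 8 macrophage markers, however, 3 were higher than WT in ILKR211A Tg hearts and 6 in ILKS343D Tg hearts. Between the lines 1 was higher in ILKR211A Tg hearts, and 1 was higher in the second WT set than in the first. The macrophage sums of ILKR211A Tg hearts lay within the WT range. The part of cell make-up in the Idh1 values was not tested.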

How the data were processed

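The authors ran MAS5 in GCOS on Affymetrix mouse arrays and deposited linear signal intensities, with 1 column per heart. On every array the mean trimmed by 2% at each end is equal. No source used here gives the scaling target, the MAS5 version or a genome build. After 64 array controls were removed, 45037 probe sets were left, and log2 of each signal was taken without an offset. A probe set was tested if its log2 signal averaged 5.44 or more, the median over probe sets, which 22519 did. The platform annotation, with symbols brought up to date by gene identifier through RefSeq, names a single gene for 34945 of them all, more than 1 gene for 932 and no gene for 9160. Where several probe sets name a gene alone, the brightest on average leads and gives the gene's value.

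The genotypes were compared with limma 3.58.1 in R 4.3.3, using linear models and empirical Bayes with a trend over all 12 arrays with 6 WT hearts as controls, two-sided, with Benjamini-Hochberg adjustment over all tested probe sets and a threshold of 0.05. The WT sets were compared with 4 groups. The fit was tested on simulated data with known changes. The labels do not say whether mice share a litter, so p-values measure the spread between these mice, and the number of arrays limits the precision. No label states a pairing of hearts. In same-numbered ILKR211A Tg and second-set hearts, deviations from the group means correlated weakly over probe sets (0.167, 0.179 and 0.119). For ILKS343D Tg hearts and the first set the correlations were 0.0709, 0.209 and 0.17. Across the ranges they were -0.0687, -0.149 and -0.0199 for ILKR211A Tg hearts and the first set. For ILKS343D Tg hearts and the second set they were -0.0153, -0.102 and -0.0547. Whether the numbers mark pairs was not tested, and differently numbered hearts were not compared. The main fit and its standard errors take no account of such pairs. Among the alternatives, the block within the range of heart numbers does. The replicate block joins same-numbered hearts of all 4 groups. Correlations between members used 100000 resamples, seed 5, in Python 3.11.15 with scipy 1.17.1, and figures were drawn with matplotlib 3.10.9. The named genes are the members, the 3 genes most like each, and the 2 genes of each pathway list with the smallest p between ILKR211A Tg and WT hearts, with Ilk. Of the neighbours of Idh1, Myl1 and Fzd5 are also named. Promoter windows are from RefSeq (GRCm38.p6), where 4 of the 5 members were matched by symbol. Idh3a has no entry. The members and lists were chosen with earlier results of these data known. Alternatives covered scaling, an offset of 16, the filter, the prior variance, array weights, the arrays and controls in the fit, replicate blocks, single mice left out, averaging the probe sets of a gene and the methods' t-test. The paper describes groups with and without infarction for these arrays, whereas the labels name 3 genotypes only, which were followed here.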

Additional observations from a re-analysis of the deposited data

Results flagged for a closer look

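In the WT second set, replicate 2 had an Idh3b signal of 2346 at 1418886_s_at, below the other 5 WT hearts at 2731 to 2953. Its gap to the nearest heart was 0.634 of the whole WT range, above Dixon's critical value for 6 samples. Of the 13 probe sets examined in this way 1 was flagged, and chance alone flags about 1 in 20 groups. The same heart had the highest Idh2 signal of all 12 hearts, 9103 at 1450048_a_at.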

How the results depend on the processing

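Idh1 at 1422433_s_at kept its direction between ILKR211A Tg hearts and WT and between the lines under every alternative run. Its log2 difference was -0.41 and -0.52 with the mean of both Idh1 probe sets in place of the leading one. With each heart left out it ranged from -0.86 to -0.70 against WT and from -1.05 to -0.88 between the lines. The replicate block left both at -0.80 and -0.95, and the block within the range of heart numbers, added after seeing the data, gave -0.56 against WT. Idh2 did not keep its direction under every alternative. Its log2 difference ranged from -0.19 to 0.049 between ILKS343D Tg and WT hearts and from -0.0068 to 0.26 between the lines.

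Counts of member probe sets called between ILKR211A Tg and WT hearts were 1 in place of 0 with quantile normalization, the top 25% by mean signal, array weights or the first WT set alone, and 0 to 1 with each heart left out. Between the lines they were 0 in place of 1 with each array centred on its median, no filter, empirical Bayes without trend, the replicate block or the methods' t-test, and 0 to 1 with each heart left out. These calls lie close to the threshold, and nothing is read from them. Over all probe sets the t-test called 5 in place of 46 between ILKR211A Tg and WT hearts and 0 in place of 36 between the lines. Between the lines there were 5 without trend, 55 with array weights, 16 with only the arrays compared and 10 to 49 with each heart left out. Between ILKS343D Tg and WT hearts there were 3 in place of 1 with the second WT set alone. Between the WT sets there were 1 in place of 2 with the top 25% or only the arrays compared, 0 with the t-test and 2 to 4 with each heart left out. The replicate block gave 52 between ILKR211A Tg and WT hearts, 38 between the lines, 1 and 3, and changed no other call. Same-numbered hearts of the 2 lines did not deviate together (correlations from -0.205 to -0.00813).

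By r, 0 pairs of members passed the threshold, and 3 did with arrays centred on the median. The 55 pathway genes gave 0 calls under all alternatives. The causes of these changes were not tested.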
